A study of Mus musculus with 2 samples.

Results

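The squamous differentiation program of the esophageal epithelium was examined through 41 named genes of cornified envelope assembly and keratinocyte maturation, in a series of 2 Affymetrix arrays of fetal mouse esophagus at E18.5. One array carried RNA labelled BALB/c Myf5:Myod null, titled Myf5-/-:MyoD-/-, and the other carried RNA of wild-type BALB/c esophagus. Neither array has a replicate, so each difference below compares a pair of RNA samples, carries no p-value and has no replicate check. The labels do not say how the null alleles were made or whether RNA of several embryos was pooled.

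Members were all probe sets to which the platform annotation gives exactly 1 gene symbol from the named set. This gave 59 probe sets of 39 genes, of 18193 named genes on the array. Sprr2a1 had no probe set of its own, since its probe sets are annotated to several genes, and Crnn had none in the annotation used here, so neither has a signal below. A gene was called measured where its brightest probe set reached a signal of 489 on at least 1 array, the median signal of all non-control probe sets. Signals below this limit were raised to it before ratios were taken, so a gene below it on 1 array has only a bound. By this rule 34 members were measured, 32 of them on both arrays, and 5 were below the limit on both. Members and lists were chosen with earlier results of these data known.

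In a stratified squamous epithelium, basal cells divide and their daughters mature as they move toward the surface. There the plasma membrane is lined by the cornified envelope, a protein shell joined by transglutaminases. Involucrin, envoplakin and periplakin form its scaffold, and loricrin and the small proline-rich (Sprr) proteins are cross-linked onto it. Many of these precursors are encoded side by side in the epidermal differentiation complex on mouse chromosome 3. The mouse esophagus is lined before birth by an epithelium that converts from simple to stratified squamous.

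Markers of stratified squamous epithelium, apart from the basal keratin Krt14, were bright on both arrays. Krt14 read 2248 (null-labelled) against 5532 (wild type) at its brightest probe set, 2.46-fold lower. The basal keratins Krt5 and Krt15 read 30399 and 78385 on the null-labelled array, against 36718 and 87361 on the wild-type array. The suprabasal esophageal keratins Krt4 and Krt13 read 259124 and 30568 on the null-labelled array, against 173385 and 40725 on the wild-type array. A second probe set of each went the other way, at 71386 and 16226 (null-labelled) against 84833 and 13879 (wild type). Trp63, the master regulator of stratified epithelia, read 32742 (null-labelled) against 20777 (wild type). Of 11 markers of skin epidermis, 6 were below the limit on both arrays, among them the keratins Krt1, Krt2 and Krt77. The other 5 were measured. Asprv1, Casp14, Krt10 and Cdsn were above the limit on both arrays, and Lce1b on the null-labelled array only. Asprv1 read 3913 (null-labelled) against 12747 (wild type), and the remaining 4 had ratios above 0. Of the targeted genes, Myf5 read 496 on the null-labelled array and 4072 on the wild-type array, while Myod1 read 1698 (null-labelled) against 2001 (wild type) at its brighter probe set. Whether the Myod1 probes fall inside the deletion is unknown, so the Myod1 signal neither checks nor contradicts the label, and the RNA is called null-labelled throughout. Of 8 striated muscle genes, which include Myf5 and Myod1, all but Myod1 were at least 2-fold lower on the null-labelled array. The median log2 ratio of the 8 was -6.08. The Y-linked Eif2s3y read 2402 on the null-labelled array and 10.6 on the wild-type array, while Xist, which is transcribed from the inactive X chromosome of female cells, was bright on both, at 24254 on the null-labelled array and 42465 on the wild-type array for its brightest probe set. The sex and number of the embryos are not in the labels, and sex and genotype cannot be told apart. The ratio of 3' to 5' signal was 14.2 on the null-labelled and 12.6 on the wild-type array for beta-actin, and 6.96 (null-labelled) against 10.5 (wild type) for Gapdh. The part of RNA quality, muscle RNA or sex in the ratios below was not tested.

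Of the 34 measured members, 8 read at least 2-fold lower on the null-labelled array, which is 23.5%, against 5.36% of the 13315 measured genes. They were Psca, Spink5, Cnfn, Sprr1a, Sprr3, Tgm1, Emp1 and Aqp3. None read at least 2-fold higher, against 6.01% of measured genes. That share varied with signal. It was 13.2% at a mean signal of 489 to 1000, where 4 members lay, and 2.05% at 4000 to 16000, where 8 lay. At 4-fold, 4 members were lower (Psca, Spink5, Cnfn and Sprr1a) and 0 higher, against 1.07% and 0.158% of measured genes. The members' median log2 ratio, null-labelled to wild type, was -0.20, against 0.086 for all measured genes. The median of all genes was 0.41 at a mean signal of 489 to 1000, -0.10 at 4000 to 16000 and 0.44 above 64000. The gene lists below were not matched for signal. A ratio below 0 was found for 22 members and above 0 for 12, and 43.4% of all measured genes lay below 0. With bounds counted at their size, 21 of the 34 were within 1.5-fold of equal. Another 2 (Ppl and Sbsn) were between 1.5-fold and 2-fold lower, and 3 (Krtdap, Klf5 and Anxa1) between 1.5-fold and 2-fold higher. Sprr2d and S100a9 are among the 21, but their ratios are bounds and may be larger than 1.5-fold or 2-fold. In bulk tissue, fewer cells of a type and less RNA per cell cannot be told apart.

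The only error to be had from single arrays is how far probe sets of one gene differ in log2 ratio. Its SD was 0.56 over 14307 probe sets of 5455 genes, and it leaves out variation between animals. Next to the 2-fold threshold lay Aqp3 (2.01-fold lower) and Emp1 (2.11-fold lower) on the inside, and Krtdap (1.90-fold higher) and Klf5 (1.75-fold higher) on the outside. On the lower side the nearest member outside was Ppl, at 1.64-fold.

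**Figure D1:**
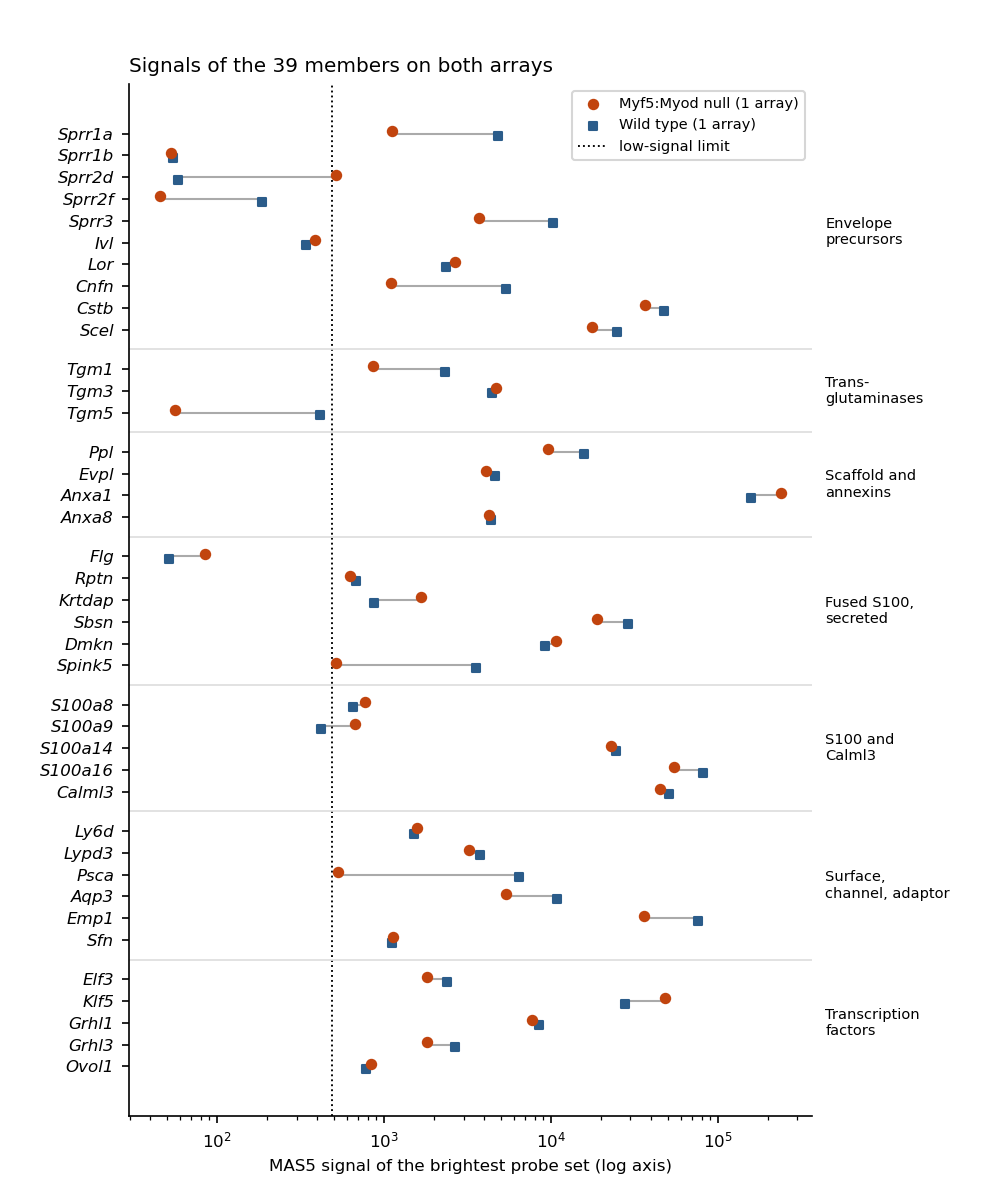
MAS5 signal (log axis) of the brightest probe set of each of the 39 members, grouped by role, on the null-labelled array (circles) and the wild-type array (squares), 1 array each; the dotted line is the low-signal limit of 489. The widest gaps above the limit are those of Psca (530 null-labelled, 6437 wild type), Spink5 (514 null-labelled, 3556 wild type), Cnfn (1103 null-labelled, 5369 wild type) and Sprr1a (1111 null-labelled, 4817 wild type), while Evpl, Anxa8, S100a14 and Sfn nearly overlap.

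Among the envelope precursors, 3 of 7 measured genes read lower by 2-fold or more and 0 higher, against 5.36% and 6.01% of all measured genes. Cnfn, which encodes the envelope component cornifelin, read 1103 on the null-labelled array and 5369 on the wild-type array, 4.87-fold lower (log2 ratio -2.28). Sprr1a, a small proline-rich precursor, read 1111 (null-labelled) against 4817 (wild type), 4.34-fold lower (log2 ratio -2.12). Sprr3, the small proline-rich gene typical of internal squamous epithelia such as the esophagus, read 3691 (null-labelled) against 10358 (wild type), 2.81-fold lower (log2 ratio -1.49). Each of the 3 has a single probe set, so no second probe set checks them.

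The remaining precursors were close to equal or dim. Loricrin (Lor), the main envelope protein of skin, read 2675 on the null-labelled array and 2368 on the wild-type array, 1.13-fold higher, and its second measured probe set read 533 (null-labelled) against 490 (wild type). The remaining Lor probe set was below the limit on both. Cstb, the cysteine protease inhibitor cystatin B, read 36775 (null-labelled) against 47512 (wild type), 1.29-fold lower, and 1.23-fold lower at its second probe set. Scel, which encodes the envelope precursor sciellin, read 17688 (null-labelled) against 24994 (wild type), 1.41-fold lower. Of the other small proline-rich genes, Sprr2d was just above the limit on the null-labelled array, at 519 (null-labelled) against 58.7 (wild type), so it counted as at least 1.06-fold higher. Sprr1b (52.9 null-labelled, 54.7 wild type) and Sprr2f (45.5 null-labelled, 187 wild type) were below it on both arrays, as was involucrin (Ivl), with 389 (null-labelled) and 344 (wild type) at its brighter probe set.

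Within the complex, Sprr1b, Sprr3 and Sprr1a are consecutive protein-coding genes in the RefSeq annotation of GRCm38.p6, of which the first was below the limit on both arrays and the other two were 2.81-fold and 4.34-fold lower. Lor lies in the same complex and was 1.13-fold higher.

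Promoter sequences show what these genes share upstream. The 250 bases before the RefSeq start site in GRCm38.p6 were available for 31 of the 41 genes. They were searched on both strands for TGANTCA, which is bound by AP-1, the Fos and Jun factor of keratinocyte differentiation. It was found in 15 of the 31 genes, against 6.75% of 32851 promoter windows of the same length. The TATA box letters TATAAA were also in 15 of 31, against 12.4% of windows. A gene counted if any of its windows held the letters, and 5 of the 31 have several. The percentages are of single windows, so the 2 measures are not alike. AACCGGTT, bound by grainyhead-like factors, was in 0 of 31 and in 0.116% of windows. TGANTCA was present for 2 of the 6 members at least 2-fold lower that have a window (Sprr1a and Emp1) and for 8 of the 18 other measured members. The windows of 3 lower genes are shown beside those of Lor and Krtdap, which read 1.13-fold and 1.90-fold higher, with TGANTCA and TATAAA matches in capitals. A match is a run of letters and says nothing of binding. The windows are Sprr1a at chr3:92485882-92486131, minus strand, Sprr3 at chr3:92458721-92458970, minus strand, Cnfn at chr7:25369725-25369974, minus strand, Lor at chr3:92083143-92083392, minus strand, and Krtdap at chr7:30787655-30787904, plus strand.
Sprr1a: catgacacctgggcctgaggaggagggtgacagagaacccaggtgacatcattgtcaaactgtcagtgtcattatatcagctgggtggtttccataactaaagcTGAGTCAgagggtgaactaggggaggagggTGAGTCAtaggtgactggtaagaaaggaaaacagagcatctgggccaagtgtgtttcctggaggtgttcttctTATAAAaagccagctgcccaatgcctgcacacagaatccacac
Sprr3: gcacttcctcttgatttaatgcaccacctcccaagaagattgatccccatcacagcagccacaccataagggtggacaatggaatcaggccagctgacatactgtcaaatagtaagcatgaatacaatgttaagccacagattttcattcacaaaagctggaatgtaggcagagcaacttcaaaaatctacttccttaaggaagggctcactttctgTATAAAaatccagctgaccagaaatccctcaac
Cnfn: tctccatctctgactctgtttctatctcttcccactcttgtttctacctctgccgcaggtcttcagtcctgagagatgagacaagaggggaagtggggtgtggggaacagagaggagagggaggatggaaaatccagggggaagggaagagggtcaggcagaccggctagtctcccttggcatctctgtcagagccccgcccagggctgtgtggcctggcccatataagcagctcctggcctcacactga
Lor: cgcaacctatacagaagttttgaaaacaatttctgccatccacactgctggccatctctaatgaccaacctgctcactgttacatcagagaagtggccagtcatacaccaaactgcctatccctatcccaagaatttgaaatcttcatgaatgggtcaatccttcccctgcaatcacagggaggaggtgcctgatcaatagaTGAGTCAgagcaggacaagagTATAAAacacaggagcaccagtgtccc
Krtdap: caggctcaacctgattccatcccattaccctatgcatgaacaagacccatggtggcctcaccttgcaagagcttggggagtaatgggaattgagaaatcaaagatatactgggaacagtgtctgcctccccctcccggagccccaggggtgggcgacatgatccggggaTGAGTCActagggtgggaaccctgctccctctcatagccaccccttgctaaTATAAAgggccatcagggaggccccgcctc
The Sprr1a window holds TGAGTCA at -146 and -116 from the start and TATAAA at -43. Sprr3 holds TATAAA at -33 with no AP-1 match in this window, and Cnfn holds none of the 3 motifs. Lor and Krtdap each hold both, with TGAGTCA at -48 and -81. Lower and non-lower members alike therefore included genes with and without the AP-1 letters.

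Of the enzymes that cross-link the envelope, Tgm1, the membrane-bound transglutaminase of keratinocytes, read 867 on the null-labelled array and 2311 on the wild-type array, 2.67-fold lower (log2 ratio -1.42). Raising the limit to the 75th percentile of signals left a log2 ratio of -0.72, which is not 2-fold. Tgm3, the transglutaminase of skin and hair follicles, read 4703 (null-labelled) against 4433 (wild type), 1.06-fold higher, and 1662 (null-labelled) against 908 (wild type) at its second probe set, 1.83-fold higher. Tgm5 was below the limit on both arrays (56.1 null-labelled, 417 wild type). The Tgm3 ratio at its brightest probe set is no larger than the median ratio of all genes (log2 0.085 against 0.086).

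Of the 4 scaffold and membrane-binding genes, 0 were 2-fold apart. Periplakin (Ppl) read 9599 on the null-labelled array and 15746 on the wild-type array, 1.64-fold lower, and its partner envoplakin (Evpl) read 4078 (null-labelled) against 4657 (wild type), 1.14-fold lower. Anxa1, a calcium-dependent phospholipid-binding protein of many cell types, read 238332 (null-labelled) against 157991 (wild type), 1.51-fold higher. This direction turned with quantile normalization (log2 ratio -0.50, against 0.59 as deposited), and its second probe set, below the limit on the null-labelled array, was at least 1.14-fold lower. Anxa8, a related annexin, read 4242 (null-labelled) against 4395 (wild type), and its 2 probe sets had log2 ratios of -0.051 and 0.19; the first turned above 0 with quantile normalization and loess.

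Genes for fused S100 and secreted suprabasal proteins went both ways. Spink5, which encodes the serine protease inhibitor LEKTI of the kallikreins that shed surface cells, read 514 on the null-labelled array and 3556 on the wild-type array, 6.92-fold lower (log2 ratio -2.79). The null-labelled signal sits next to the limit, so the size of this ratio depends on the limit, and a limit at the 75th percentile gave a log2 ratio of -1.35. Sbsn, Dmkn and Krtdap are consecutive genes on chromosome 7 that encode secreted proteins of differentiating keratinocytes. Sbsn (suprabasin) was lower at all 3 probe sets, by 1.52-fold at the brightest (18963 null-labelled against 28911 wild type), 1.67-fold at the next and at least 2.82-fold at the dimmest. Dmkn (dermokine) read 10799 (null-labelled) against 9288 (wild type), 1.16-fold higher, and Krtdap read 1673 (null-labelled) against 879 (wild type), 1.90-fold higher (log2 ratio 0.93, or 0.26 with the higher limit). These neighbours therefore did not share a direction. Rptn (repetin) read 630 (null-labelled) against 683 (wild type), and filaggrin (Flg), the filament-bundling protein of skin, was below the limit on both arrays (85.04 null-labelled, 51.3 wild type).

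The S100 and calmodulin-like genes were all within 2-fold at each measured probe set, with S100a9 counted at its bound. S100a14 and S100a16, neighbouring genes for epithelial calcium-binding proteins, read 22895 and 54681 on the null-labelled array, against 24612 and 81072 on the wild-type array, 1.07-fold and 1.48-fold lower. The second S100a16 probe set was 1.71-fold lower. Calml3, an epithelial calmodulin-like protein, read 44776 (null-labelled) against 51385 (wild type), 1.15-fold lower. S100a8 and S100a9, whose products form calprotectin and are also abundant in neutrophils, were near the limit. S100a8 read 776 (null-labelled) against 655 (wild type), and S100a9 read 671 (null-labelled) against 422 (wild type), at least 1.37-fold higher. The S100a8 direction turned with quantile normalization and loess (log2 ratios -0.16 and -0.18, against 0.24 as deposited). Of 13 neutrophil and myeloid markers with a probe set, 7 were measured, 1 was at least 2-fold lower (Ltf, 3403 null-labelled against 16481 wild type) and 0 higher. The shares over all measured genes were 5.36% and 6.01%. Of the 7, 5 had a ratio above 0, and the median log2 ratio was 0.19. The summed signal of all 13 was 10628 on the null-labelled array and 21383 on the wild-type array, but without Ltf it was 7226 on the null-labelled array and 4902 on the wild-type array. The markers Lcn2, Itgam, Csf3r and Cxcr2 were below the limit on both. The part of neutrophil and myeloid cells in the S100a8 and S100a9 signals was not tested.

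Of 6 measured surface, channel and adaptor genes, 3 read lower by 2-fold or more and 0 higher, against 5.36% and 6.01% of all measured genes. Psca, which encodes a glycosylphosphatidylinositol-anchored protein of the Ly6 family, read 530 on the null-labelled array and 6437 on the wild-type array, 12.1-fold lower (log2 ratio -3.60), the largest ratio of the 34 measured members. Its null-labelled signal is also next to the limit, and a limit at the 75th percentile gave a log2 ratio of -2.20. The related surface genes Ly6d, 5 protein-coding genes away from Psca on chromosome 15, and Lypd3 were close to equal. Ly6d read 1587 (null-labelled) against 1506 (wild type) and Lypd3 3235 (null-labelled) against 3778 (wild type), 1.17-fold lower.

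Emp1, a tetraspan epithelial membrane protein, read 36166 on the null-labelled array and 76280 on the wild-type array, 2.11-fold lower (log2 ratio -1.08). Its second probe set was dim, at 116 (null-labelled) against 524 (wild type), so it gives only a bound of at least 1.07-fold lower. Aqp3, the water and glycerol channel of squamous epithelia, read 5397 (null-labelled) against 10823 (wild type), 2.01-fold lower (log2 ratio -1.004). A second probe set read 592 (null-labelled) against 840 (wild type), 1.42-fold lower, and another read 306 (null-labelled) against 538 (wild type), at least 1.10-fold lower. The last was below the limit on both arrays, at 453 (null-labelled) and 242 (wild type). Taking the median over all measured probe sets of a gene, Emp1 and Aqp3 had log2 ratios of -0.59 and -0.50, so neither was 2-fold lower. Aqp3 was not 2-fold lower with quantile normalization or loess either (-0.85 and -0.91). Sfn, the keratinocyte differentiation gene stratifin, read 1131 (null-labelled) against 1121 (wild type). The ratios of Ly6d and Sfn were so close to equal that their sign depended on the scaling.

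The transcription factors of the program included 0 of 5 that were 2-fold apart. Klf5, a Krüppel-like factor of proliferating esophageal basal cells, read 48308 on the null-labelled array and 27658 on the wild-type array, 1.75-fold higher, and its other measured probe sets were 1.26-fold and at least 1.34-fold higher. Grhl3, a grainyhead-like regulator of barrier genes, read 1806 (null-labelled) against 2673 (wild type), 1.48-fold lower, and its relative Grhl1 read 7676 (null-labelled) against 8471 (wild type), 1.10-fold lower. Elf3, an epithelial Ets factor, read 1820 (null-labelled) against 2400 (wild type), 1.32-fold lower. Ovol1, which restrains proliferation of maturing keratinocytes, read 842 (null-labelled) against 786 (wild type). Its direction turned with quantile normalization and loess.

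**Figure D2:**
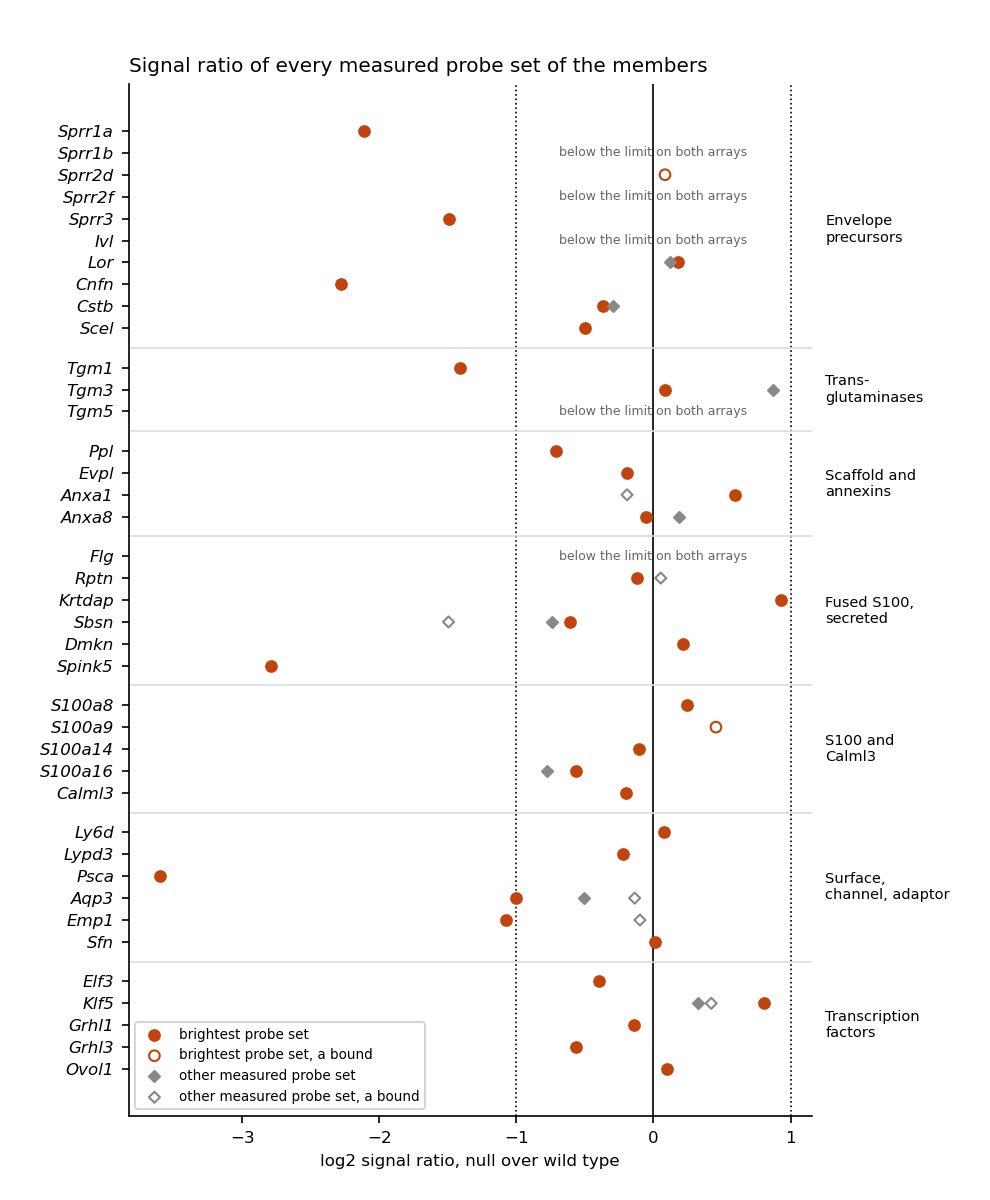
Log2 signal ratio (null-labelled to wild type) for each measured probe set of the members, by role; filled symbols are measured on both arrays, open symbols are bounds, and dotted lines mark 2-fold. Psca, Spink5, Cnfn and Sprr1a lie beyond -2, and the probe sets of Klf5 all lie above 0 while those of Sbsn all lie below it.

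Where a gene had several measured probe sets, they mostly shared a sign. This held for 8 of 11 such members, and the range between their log2 ratios had a median of 0.48 and a maximum of 0.98. The 3 with mixed signs were Anxa1, Anxa8 and Rptn. Of the 8 members at least 2-fold lower, 6 have 1 probe set, so most of the large differences lack this check.

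**Figure D3:**
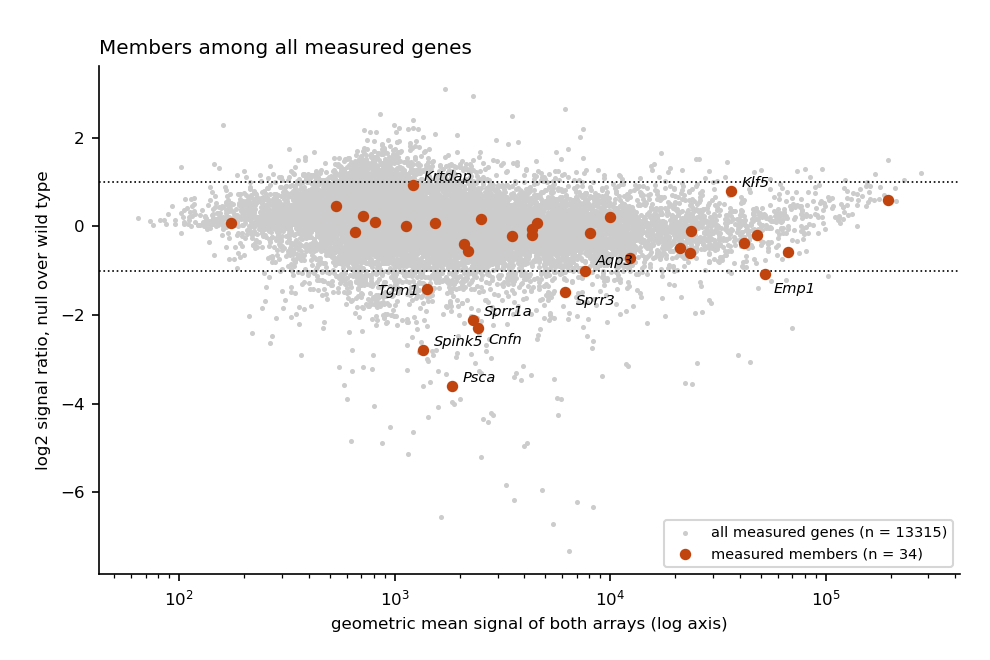
Log2 signal ratio (null-labelled to wild type) against the geometric mean signal of both arrays (log axis) for 13315 measured genes (grey) and the 34 measured members (coloured); dotted lines mark 2-fold. The 8 lower members lie at or under the lower dotted line, and no member lies above the upper one.

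Other genes of the same epithelium were set beside the members. The shares over all measured genes, for comparison with the counts of each list, were 5.36% lower and 6.01% higher. In the rest of the chromosome 3 complex, 11 genes were measured, and 8 of the 11 ratios were bounds. Their median log2 ratio was 0.40, against 0.41 for all genes with a mean signal of 489 to 1000. Of the 11, 1 was 2-fold or more lower and 0 higher. The lower gene was Crct1, which read 511 on the null-labelled array and 4920 on the wild-type array, 9.63-fold lower, with a null-labelled signal next to the limit on which this size depends. The late envelope gene Lce3b read 3520 (null-labelled) against 2021 (wild type), 1.74-fold higher, and Kprp at least 1.73-fold higher. Of 6 other measured S100 genes, 1 was lower and 0 higher (median -0.29). It was S100a3, at least 2.84-fold lower, while S100a1 was 1.45-fold higher and S100a10 1.38-fold lower.

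Of 18 measured barrier enzymes, lipid genes and protease inhibitors, 3 were 2-fold or more lower and 0 higher, with a median of 0.13. This median turned to -0.18 with quantile normalization, -0.24 with loess and -0.19 without _x_at and _s_at probe sets. The 3 were Asprv1, the protease that cleaves profilaggrin (3913 on the null-labelled array against 12747 on the wild-type array, 3.26-fold), the cystatin gene Csta1 (2.05-fold) and the ceramide synthase gene Cers3 (2.01-fold). Among 7 measured suprabasal keratins, 2 were lower and 0 higher (median -0.41). With per-gene medians over probe sets, 3 were lower and the median was -0.11. Krt78 and Krt6b were 2.94-fold and 2.26-fold lower, and the brightest Krt6a probe set 1.56-fold lower. The 2 other Krt6a probe sets had log2 ratios of -1.89 and -2.19, and near-identical Krt6 genes may share their signal.

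Basal and general epithelial genes were centred near 0. Of 13 measured basal genes, 2 were lower and 0 higher (median 0.025), and of 13 general epithelial genes 2 were lower and 0 higher (median 0.048). Both medians are smaller than that of all measured genes, so they lay below 0 after centring on it (-0.062 and -0.038) and above 0 with quantile normalization (0.049 and 0.13) and loess (0.077 and 0.079). The general epithelial median was -0.13 with per-gene medians over probe sets, and also without _x_at and _s_at probe sets. With the limit at the 75th percentile the basal median was -0.16. The hemidesmosomal laminin gene Lamb3 was 3.57-fold, Krt14 2.46-fold and the integrin gene Itga6 1.97-fold lower. In the general list the claudin gene Cldn7 was 3.87-fold and the protease inhibitor gene Spint1 2.004-fold lower, and Grhl2 1.91-fold higher.

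Of 7 measured simple epithelium genes, 4 were lower and 0 higher, with a median of -1.25. Krt7, Cldn4 and Krt19 read 3396, 2662 and 9856 on the null-labelled array, against 20251, 10380 and 30369 on the wild-type array, 5.96-fold, 3.90-fold and 3.08-fold lower. Of 6 measured airway and stomach genes, 1 was lower, the airway secretoglobin Scgb3a2 (692 null-labelled against 5302 wild type, 7.66-fold), and 0 higher (median 0.61), with Tff1 1.97-fold and Sftpc 1.68-fold higher. The part of these other epithelial cells in the ratios of the squamous genes was not tested. Among 17 measured regulators of squamous epithelia, 1 was lower, the homeodomain-only gene Hopx (3.01-fold, with a log2 ratio of -1.12 at its second probe set), and 1 higher, Cebpb (2.07-fold), with a median of -0.082. Over all measured genes, 5.36% were lower and 6.01% higher. The Cebpb ratio passed 2-fold by less than the median ratio of all genes. Prdm1 was 1.77-fold lower. Some dimmer probe sets departed from the brightest of their gene. They had log2 ratios of at least 2.04 for Notch1 (brightest -0.42), 1.48 for Tfap2c (brightest 0.018) and -1.23 for Jun (brightest 0.039). No difference between these lists was tested.

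**Figure D4:**
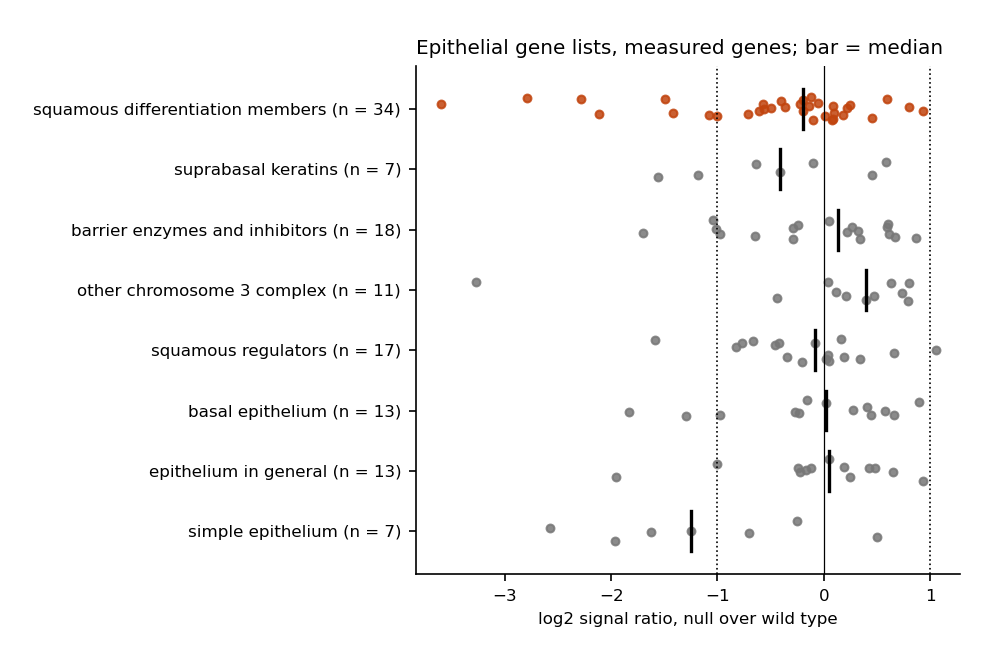
Log2 signal ratio (null-labelled to wild type) for measured genes of the squamous differentiation set and of 7 other epithelial lists; each point is a gene, the black bar is the list's median and dotted lines mark 2-fold. The squamous members reach from -3.60 to 0.93 around a median of -0.20, and the simple epithelium list has its median at -1.25.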

How the data were processed

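Total RNA was extracted with Trizol and biotin-labelled cRNA was made from 6 µg, per the labels' protocols. The deposited tables hold linear signal intensity values, and the submitters' processing notes name MAS5, with no version or setting in the sources used here. The mean signal without the highest and lowest 2% of probe sets was 1500.01 on both arrays.

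Of 45101 probe sets, 64 are controls. Gene names came from the platform annotation, updated by Entrez ID through RefSeq (34741 of 34945 probe sets with 1 symbol); 932 have several symbols and 9160 none. A gene took its probe set with the highest mean signal. Of 18193 genes, 13315 were measured, 2969 of them as bounds. Genes were counted at 2-fold, since 1 array per genotype allows no test. The number of arrays limits the precision.

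By the rule for named genes, all members are accounted for, every probe set of a member 2-fold apart is given on both arrays, and up to 3 genes with the largest ratios are named from each other list. The members and lists were chosen with earlier results of these data known. Alternatives were centring, quantile normalization, loess (span 0.3), limits at the 25th and 75th percentile, log2(signal + 16) without a limit, per-gene medians over probe sets, omission of _x_at and _s_at probe sets, a 4-fold threshold and, added later, scaling to general epithelial genes. The ratio and counting steps were tested on simulated data. The simulated log2 ratios had a smaller noise SD than the 0.56 between probe sets, and no offset that varied with signal. The simulation therefore cannot show how often the 2-fold rule errs on these arrays. Changes were set only in genes well above the limit, so ratios with a signal next to it were not tested. Promoter windows are RefSeq's (GRCm38.p6). Python 3.11.15, numpy 2.4.6, pandas 2.3.3, statsmodels 0.14.6 and matplotlib 3.10.9 were used.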

Additional observations from a re-analysis of the deposited data

How the results depend on the processing

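No paired analysis was possible because each genotype has 1 array. The count of members at least 2-fold lower was 8 of 34, against 5.36% of all measured genes. At the 4-fold threshold it was 4 of 34, against 1.07%. Over the 9 other settings at the 2-fold threshold it lay between 6 and 10. The 6 were of 34 measured members with per-gene medians over probe sets, against 4.03% of genes. The 10 were of 39 members with no limit, against 9.37% of genes. Cnfn, Psca, Spink5, Sprr1a and Sprr3 were at least 2-fold lower in all 9. Tgm1 was not with the limit at the 75th percentile (-0.72), Emp1 not with the per-gene median over probe sets (-0.59), and Aqp3 not with that setting (-0.50), quantile normalization (-0.85) or loess (-0.91). The count at least 2-fold higher was 0, and 1 with the limit at the 25th percentile or with no limit, the gene being Sprr2d, at log2 ratios of 1.63 and 2.84. Of all measured genes, 16.6% and 19.5% were at least 2-fold higher in these settings. The members' median ratio, -0.20, ranged from -0.38 (limit at the 75th percentile) to -0.19 (no limit), while that of all measured genes, 0.086, ranged from -0.033 (limit at the 75th percentile) to 0.17 (no limit) and was -0.021 with loess. Quantile normalization or loess turned the sign of Anxa1, Anxa8, Ly6d, Ovol1, S100a8 and Sfn. Centring, and scaling to the general epithelial list (chosen after seeing the data), subtract a constant above 0 from every ratio, so neither could remove a lower call or add a higher one. The causes of the other changes were not tested. Signals next to the limit bound what can be said of Psca, Spink5, Sprr2d and Crct1.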
